A study of Homo sapiens with 8 samples.

Results

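RGS2 and 9 related genes of the RGS family (regulators of G protein signalling) were followed over the 4 treatment groups of a lung adenocarcinoma cell line. RGS2 was chosen by its measured fall with rosiglitazone against control and with the combination against control. The other 9 (RGS3, RGS4, RGS5, RGS10, RGS12, RGS14, RGS16, RGS19 and RGS20) were chosen by family name. Every probe set to which the array platform's annotation gives 1 of these symbols was taken, which made 25 of the 22283 probe sets on the array. Of these 25, 10 were bright enough to be tested, and they cover 7 of the 10 genes. All 3 probe sets each of RGS4, RGS5 and RGS14 lay below the brightness limit and were not tested.

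The cells are a human line labelled as adenocarcinoma of the non-small cell lung cancer class, and the labels give the line no name. The control group received control medium (DMSO/control in the series' design text), and another group rosiglitazone at 1 µM, a ligand of the nuclear receptor PPARγ. The remaining groups were given carboplatin, a platinum compound that crosslinks DNA, at 10 µM, or both agents together, a mixture whose doses the labels do not restate. Exposure lasted 24 h in all groups, and each group has 2 arrays, 8 in all. The series concerns synergy between the 2 kinds of drug. Whether the 2 arrays of a group come from separate cultures is not stated, so the p-values reflect the variation from array to array, some or all of which could be technical.

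G protein-coupled receptors signal by loading GTP onto the α subunit of a heterotrimeric G protein, and the signal lasts until that GTP is hydrolysed. RGS proteins share a domain that binds the active α subunit and speeds up GTP hydrolysis, so they shorten the signal. RGS2 is known as a regulator of the Gq class, which activates phospholipase Cβ and calcium release, and its gene is known to respond quickly to cAMP and calcium in many cell types. The family is sorted by sequence into subfamilies. RGS2, RGS3, RGS4, RGS5 and RGS16 belong to R4, RGS10, RGS12 and RGS14 to R12, and RGS19 and RGS20 to RZ.

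RGS2 lies on chromosome 1 (GRCh38.p14, 192809039 to 192812275), where its RefSeq promoter window is on the plus strand. The 250 bases before the start of the gene are shown because RGS2 is the member chosen by its measured fall. Capitals mark the only match to the motifs searched.

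RGS2 promoter, chr1:192808789-192809038: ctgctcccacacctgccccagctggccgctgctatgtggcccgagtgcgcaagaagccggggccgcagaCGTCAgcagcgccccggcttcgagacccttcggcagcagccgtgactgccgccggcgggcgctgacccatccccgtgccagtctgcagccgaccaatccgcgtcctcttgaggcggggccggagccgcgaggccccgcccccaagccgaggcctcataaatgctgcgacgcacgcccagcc

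Bases G and C make up 72.8% of this stretch. The capitals lie 181 to 177 bases before the start and match TGACG, the core of the cAMP response element, on the minus strand. That core occurs in 24.6% of the 35116 RefSeq promoter windows, each from 250 bases before to 50 after a start and searched on both strands. The full cAMP response element, TGACGTCA, contains the core and occurs in 1.85% of windows, but not in that of RGS2. The PPAR core site AGGTCA (13.8% of windows), its direct repeat AGGTCANAGGTCA (0.0228%) and the TATA box TATAAA (11.5%) are not in the RGS2 window either. These are matches of letters and carry no information on binding.

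Array medians of the deposited signal ran from 36.2 to 54.3, with 45.8 and 36.2 in control and 46.4 and 54.3 with rosiglitazone. Signals were therefore compared as quantile normalized log2(signal + 16), the scale of every level and difference below unless deposited signals are named. The added 16 understates changes of dim probe sets. Standard errors (SE) and adjusted p-values come from limma, with p-values adjusted by Benjamini-Hochberg across the 13338 probe sets tested, and n = 2 arrays a group. Correlations between arrays ran from 0.964 to 0.984, and those within a group from 0.974 to 0.976. Some pairs of arrays from different groups were thus more alike than any pair within a group, and some less. Epithelial markers fitted the labelled origin in part, with 7 of the 9 with a probe set above the brightness limit. For comparison, 13338 of the 22283 probe sets on the array were tested, and each marker was read by its brightest. KRT7, KRT8 and KRT18 stood at brightness percentiles of 98.8, 98.1 and 99.3, and the other epithelial markers above the limit at 51 to 76.1. EPCAM and the lung lineage factor NKX2-1 were below the limit. None of 5 endothelial markers was above the limit, 2 of 7 pericyte and fibroblast markers were (ACTA2 and COL1A1), and 2 of 4 leukocyte markers (CD3E and LCP1).

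RGS2 was lower on every array with rosiglitazone than on every array without it. Its log2 level was 8.28 and 8.51 on the control arrays, 7.19 and 7.47 under rosiglitazone, 8.17 and 8.13 under carboplatin and 7.23 and 7.44 under both. The 4 arrays with rosiglitazone thus formed a low set and the 4 without it a high set, with no overlap. The deposited signals of its probe set (202388_at) keep that order, at 325.8 and 289.2 on the control arrays, 130.5 and 207.9 under rosiglitazone, 218.2 and 271.9 under carboplatin and 110.4 and 197.7 under both. In deposited signals the gap between the sets is narrower, from 207.9 for the brighter rosiglitazone array to 218.2 for the dimmer carboplatin array. RGS2 was chosen by its fall against control, which is part of this separation. The share of all probe sets that separate 4 arrays from 4 in this way was not counted.

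**Figure D1:**
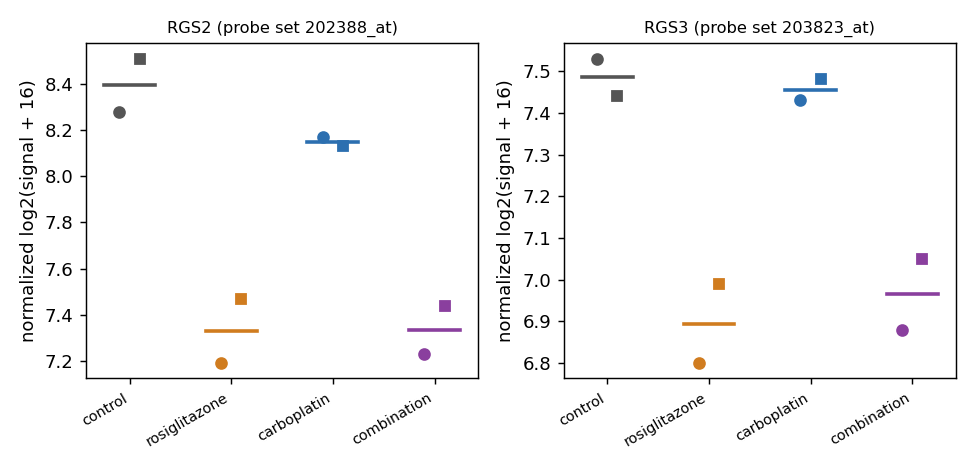
Normalized log2(signal + 16) of RGS2 (left) and RGS3 (right) on each array, by treatment group; circles are replicate 1, squares replicate 2, and bars the mean of the 2, and each panel has its own vertical range. For both genes the 4 arrays with rosiglitazone lie below the 4 without it, at 7.19 to 7.47 against 8.13 to 8.51 for RGS2.

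Rosiglitazone against control and the combination against control are the contrasts that chose RGS2, so they are given as a description with no test. The log2 difference of RGS2 was -1.07 ± 0.17 (SE) with rosiglitazone, 2.09-fold lower on this scale. With the combination it was -1.06 ± 0.17, or 2.08-fold lower. The 2 differences share the control arrays. The measurement is of bulk RNA, in which fewer cells that express a gene and less of its RNA per cell cannot be told apart.

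The combination against carboplatin asks what rosiglitazone adds when the platinum drug is present. Here the RGS2 difference was -0.81 ± 0.17, or 1.75-fold lower, with a 95% interval from -1.17 to -0.44. The difference did not pass over all probe sets (limma adjusted p = 0.134, unadjusted p = 0.000483, rank 48 of 13338). The carboplatin arrays had no part in the choice of RGS2, but the combination arrays did. The mean log2 level of the epithelial markers also differed on these arrays. It was 7.66 to 7.74 with carboplatin and 8.0 to 8.05 with the combination, against 7.81 to 7.84 in control and 7.91 to 7.94 with rosiglitazone. That mean covers the 9 markers with a probe set, EPCAM and NKX2-1 included. For the combination against carboplatin 6 of the 7 tested markers were higher and 1 lower, and none passed. At an unadjusted p under 0.05 there were 3 of the 7, beside 6.43% of all probe sets. KRT7 was at 0.63 ± 0.13 (limma adjusted p = 0.123, unadjusted p = 0.000426). The part of these markers in the RGS2 difference was not tested.

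With carboplatin alone the RGS2 difference from control was -0.25 ± 0.17 (adjusted p = 0.928, and -0.13 without control replicate 2), with an interval from -0.61 to 0.12, although both carboplatin arrays lay below both control arrays. Adding carboplatin to rosiglitazone gave 0.01 ± 0.17 (adjusted p = 1, and -0.14 with the deposited scaling), with an interval from -0.35 to 0.38, and those groups overlapped. The interaction, by which the combination departs from the sum of the single-drug differences, was 0.26 ± 0.24 (adjusted p = 0.918), with an interval from -0.26 to 0.77, and ran from 0.117 to 0.396 when single arrays were left out. In order of mean level the groups ran from control (8.39) and carboplatin (8.15) to the combination (7.34) and rosiglitazone (7.33), and neither the upper nor the lower pair of neighbours was separated by a test. The intervals still allow a carboplatin effect of either sign. Each of these contrasts uses control, rosiglitazone or combination arrays, which had part in the choice of RGS2. Their p-values and intervals take no account of that choice.

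RGS3, an R4 member that acts on α subunits of the Gi and Gq classes, had the pattern most like RGS2 among the tested member probe sets. The gene lies on chromosome 9 (GRCh38.p14, 113444730 to 113597738). Its brighter probe set, 203823_at, was at 7.53 and 7.44 on the control arrays and 6.80 and 6.99 under rosiglitazone. It was at 7.43 and 7.48 under carboplatin and 6.88 and 7.05 under both. As for RGS2, all 4 arrays with rosiglitazone were below all 4 without it, with a smaller gap. How common this is among all probe sets was not counted. In the deposited signals the groups overlapped, with 144.4 on rosiglitazone replicate 2 against 128.9 on control replicate 2.

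The RGS3 difference was -0.59 ± 0.17 with rosiglitazone (adjusted p = 0.216, and -0.35 with the deposited scaling) and -0.52 ± 0.17 with the combination (adjusted p = 0.38), each against the same control arrays. For the combination against carboplatin it was -0.49 ± 0.17, with an interval from -0.85 to -0.13, and this did not pass (adjusted p = 0.581, unadjusted p = 0.0131). With carboplatin alone the difference was -0.03 ± 0.17 (adjusted p = 0.989). Across the 8 arrays the log2 levels of RGS3 and RGS2 had a Pearson r of 0.963, a description of points that share arrays, normalization and groups. The dim second RGS3 probe set, 220300_at, is below the limit and can be given by its values alone. It was at 5.17 and 5.20 on the control arrays, 5.07 and 4.56 under rosiglitazone, 5.33 and 5.50 under carboplatin and 5.06 and 4.74 under both. On this scale its arrays with rosiglitazone were likewise below those without, from 5.07 down against 5.17 up. Its deposited signals overlapped, with 19.6 on rosiglitazone replicate 1 against 17.66 on control replicate 2.

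RGS16, an R4 member known as an inducible regulator of Gi and Gq signals, was read by 2 probe sets that disagreed. The one above the limit, 209325_s_at, was at 5.81 and 5.51 on the control arrays, 5.83 and 5.72 under rosiglitazone, 5.50 and 5.76 under carboplatin and 6.03 and 5.86 under both. Both combination arrays lay above the other 6, by 0.29 ± 0.24 over control and 0.32 ± 0.24 over carboplatin, and the latter did not pass (adjusted p = 0.926). In deposited signals they overlapped, with 42.04 on combination replicate 1 against 45.14 on rosiglitazone replicate 2. The dimmer 209324_s_at stood instead at 5.72 and 5.71 on the control arrays, 5.72 and 5.20 under rosiglitazone, 4.30 and 4.89 under carboplatin and 5.52 and 5.47 under both. On that probe set both carboplatin arrays were below the other 6, with deposited signals of 3.334 and 12.87 against 25.35 to 38.93. Its difference of -1.12 for carboplatin against control became -2.19 with 1 added to the signal and -0.47 with 64 added, and was not seen on the brighter probe set, where it was -0.03 ± 0.24.

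RGS4 and RGS5, R4 members known from neurons and from pericytes, gave signals near the bottom of the scale. The log2 values of the 3 RGS4 probe sets ran from 4.06 to 5.47 over all arrays, and those of the 3 RGS5 probe sets from 4.19 to 5.41. A signal of 0 would stand at 4 before normalization, so neither gene can be described beyond these ranges. The pericyte marker PDGFRB was also below the limit.

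**Figure D2:**
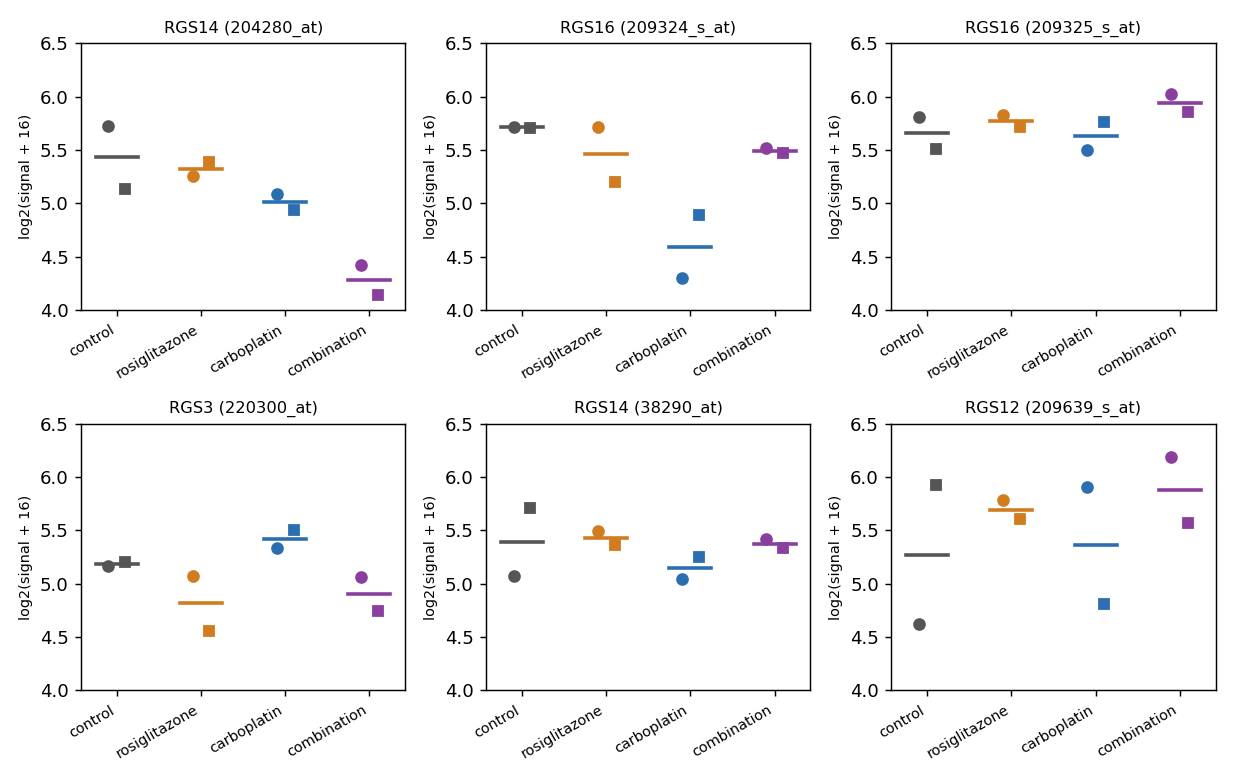
Log2(signal + 16) by treatment group of 6 member probe sets of RGS14, RGS16, RGS3 and RGS12 near or below the brightness limit. RGS16 209325_s_at and RGS12 209639_s_at lie above the limit. Circles are replicate 1, squares replicate 2, bars their mean, and all panels share 1 vertical range. RGS14 204280_at is lowest with the combination (4.42 and 4.14) and RGS16 209324_s_at lowest with carboplatin (4.30 and 4.89). The brighter probe sets 38290_at (RGS14) and 209325_s_at (RGS16) do not repeat these lows.

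Among the R12 members, which act on Gi-class α subunits, RGS10 is the smallest protein, and RGS12 and RGS14 carry further domains that bind Ras proteins and inactive α subunits. RGS10 varied little. Its brighter probe set, 204319_s_at, lay between 7.48 and 7.73 on all arrays and differed by -0.01 ± 0.15 between the combination and carboplatin (interval from -0.35 to 0.33), or by 0.134 with the deposited scaling. The second, 204316_at, ran from 5.68 to 6.09, with -0.27 ± 0.22 in the same contrast (adjusted p = 0.926), and the third, 214000_s_at, was not tested and ran from 4.42 to 5.46. The 2 tested probe sets were lower with the combination than in control on both arrays, by -0.15 ± 0.15 and -0.19 ± 0.22. Neither passed (limma adjusted p = 0.87 and 0.883). The arrays of these 2 groups lay apart for 36.8% of all probe sets. In deposited signals the groups overlapped on both RGS10 probe sets.

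RGS12 was read by 6 probe sets, of which 3 were tested, and they did not move together. 205823_at was at 6.39 and 6.85 on the control arrays, 6.25 and 6.34 under rosiglitazone, 6.52 and 6.29 under carboplatin and 6.53 and 6.16 under both. For the combination against carboplatin it differed by -0.06 ± 0.23, 209637_s_at by -0.15 ± 0.26 and 209639_s_at by 0.52 ± 0.45, none of which passed (adjusted p from 0.938 to 0.994). The 2 control arrays of 209639_s_at were themselves 4.62 and 5.92, a wider spread than any difference between its groups. The 3 untested RGS12 probe sets ran from 4.05 to 5.62.

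RGS14 was dim on all 3 of its probe sets. 204280_at was at 5.73 and 5.14 on the control arrays, 5.26 and 5.39 under rosiglitazone, 5.09 and 4.94 under carboplatin and 4.42 and 4.14 under both. The combination was thus lower than every other group, with deposited signals of 5.019 and 1.643 against 14.03 to 38.61 on the other 6 arrays. The difference from control was -1.15, and -2.76 with 1 or -0.44 with 64 added to the signal. The other probe sets did not show this. 38290_at was at 5.42 and 5.33 with the combination and 5.07 and 5.71 in control, and 211021_s_at ran from 4.10 to 4.44 over all arrays.

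The RZ members showed no difference that passed. RGS19, which acts on Gi-class subunits, was at 7.10 and 6.80 on the control arrays, 6.85 and 7.40 under rosiglitazone, 7.60 and 7.34 under carboplatin and 7.48 and 6.98 under both. Both carboplatin arrays were above both control arrays, by 0.51 ± 0.24 (adjusted p = 0.927, unadjusted p = 0.0518). RGS20, known for its action on the α subunit Gz, lay between 7.70 and 7.92 on all 8 arrays, the smallest SD over arrays (0.084) among the 10 member probe sets tested. Its combination against carboplatin difference was 0.02 ± 0.15, with an interval from -0.32 to 0.36.

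**Figure D3:**
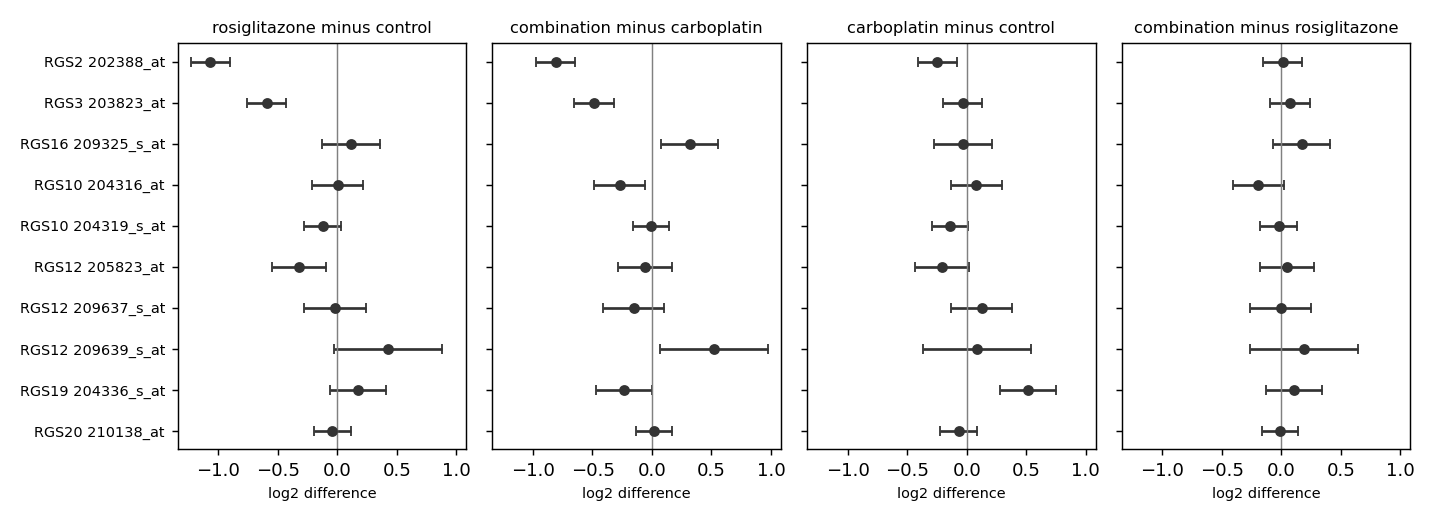
Log2 differences (points) with their SE (bars) of the 10 member probe sets tested, in 4 contrasts that share 1 horizontal scale; the vertical line marks 0. RGS2 and RGS3 lie left of 0 in both contrasts that add rosiglitazone (RGS2 at -1.07 and -0.81) and near 0 when carboplatin is added to rosiglitazone (0.01 and 0.07).

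Read as a set, the members gave few calls. RGS2 was the 1 member probe set of 10 called with rosiglitazone against control, where 0.36% of all probe sets were called. It was also the 1 called with the combination against control, where the share was 0.225%. Since these contrasts chose RGS2, nothing is read from either count. Both calls are lost with the deposited scaling, median scaling or no brightness limit, and when either control array is left out. By limma no member was called in the remaining contrasts. The share of all probe sets called there was 0.157% for the combination against carboplatin, 0.015% for carboplatin against control, 0.0225% for the combination against rosiglitazone and 0% for the interaction. At an unadjusted p under 0.05 the members numbered 2 of 10 for the combination against carboplatin, beside 6.43% of all probe sets. They were RGS3 and RGS2, and the combination arrays had part in the choice of RGS2, so nothing is read from this count either. In the other 3 contrasts there were 0 of 10, beside 5.17% of all probe sets with carboplatin, 4.54% for the combination against rosiglitazone and 5.97% for the interaction.

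The 2 arrays of a group lay entirely beyond the 2 of the other for 4 of the 10 with rosiglitazone against control, and this was so for 42% of all probe sets. For the combination against carboplatin it held for 5 of the 10, against 34.3%. These shares are near the background, so separation of 2 arrays from 2 says little for any of these genes. The median difference of the 10 was -0.03 with rosiglitazone and -0.11 for the combination against carboplatin, beside -0.01 and -0.004 for all probe sets. RGS2, chosen with arrays of both contrasts, is in these counts and medians. The family did not move as a block.

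Genes with the pattern most like RGS2 were sought among 3598 tested probe sets of other named genes whose SD over the 8 arrays was at least 0.5 of that of RGS2. The 6 with the highest Pearson r were DDX10, an RNA helicase gene (0.985), and NUAK1, a kinase gene of the AMPK-related group (0.981). ADM, which encodes the peptide hormone adrenomedullin, had 0.976, the methyltransferase gene NNMT 0.974, and the chondroitin sulfate synthesis gene CSGALNACT1 0.971. The last was PDE4B, a phosphodiesterase that degrades cAMP (0.969). Such r values mostly restate the difference between 4 arrays with and 4 without rosiglitazone, and the arrays and their normalization are shared.

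PDE4B was at 7.37 and 7.58 on the control arrays, 6.72 and 6.94 under rosiglitazone, 7.22 and 7.47 under carboplatin and 6.73 and 6.81 under both. Its 4 arrays with rosiglitazone were below its 4 without, which restates the r by which it was picked here. The lowest r with RGS2 were those of AKR1C1, an aldo-keto reductase gene with close paralogs (-0.988), the small GTPase gene RAB11B (-0.984), the collagen gene COL6A1 (-0.978) and RASA3 (-0.971), which encodes a GTPase-activating protein. RASA3 was at 5.33 and 5.23 on the control arrays and 6.22 and 6.14 under rosiglitazone. It was at 5.50 and 5.72 under carboplatin and 6.18 and 5.96 under both, so higher wherever RGS2 was lower. RASA3 was picked by that opposite pattern over these arrays, so nothing is read from it.

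**Figure D4:**
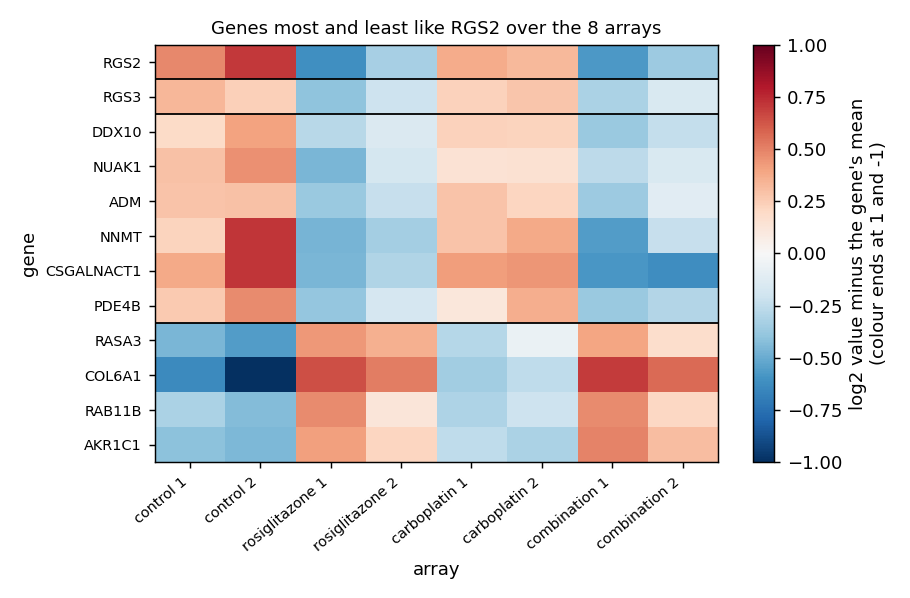
Heat map of log2 level minus each gene's mean over the 8 arrays (columns) for RGS2, RGS3, the 6 genes with the highest and the 4 with the lowest Pearson r with RGS2, divided by black lines; red is above and blue below the gene's mean. The first 8 genes are blue on the 4 arrays with rosiglitazone and the last 4 red, with RGS3 at r = 0.963 and AKR1C1 at -0.988.

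The wider pathway was read over 150 listed genes, of which 123 are on the array and 78 were tested with 1 probe set each. None was called by limma in any of the 6 contrasts. At an unadjusted p under 0.05 there were 12 with rosiglitazone against control (10.4% of all probe sets), 10 with the combination against control (8.42%) and 9 for the combination against carboplatin (6.43%). There were 3 with carboplatin (5.17%), 5 for the combination against rosiglitazone (4.54%) and 8 for the interaction (5.97%), each share again being that of all probe sets. The median of the 78 for the combination against carboplatin was 0.003. The values that follow are for that contrast unless another is named.

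Of the other RGS-domain genes 8 were tested and 2 were higher, with a median of -0.02. SNX13, a sorting nexin gene, was at -0.31 ± 0.16 (adjusted p = 0.828), or at -0.172 with the deposited scaling.

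Of 9 α subunits 6 were higher. GNA12 was at 0.43 ± 0.21 and GNA13, its close relative in the G12 class, at -0.70 ± 0.40, and GNAQ, whose product is the known partner of RGS2, was at -0.23 ± 0.14 (adjusted p = 0.874). Of 10 β and γ subunits 5 were higher, and GNG12 (-0.32 ± 0.14) and GNG3 (-0.75 ± 0.33) had the smallest p-values. Among 3 other modulators of α subunits, RIC8B, a chaperone and exchange factor, was at -0.52 ± 0.19 and GPSM3, which binds inactive subunits, at -0.61 ± 0.26. RIC8B was at 6.09 and 6.36 with the combination and between 6.61 and 6.80 on the other 6 arrays. None of these passed. Leaving out single arrays gave 0.187 to 0.682 for GNA12, -1.407 to 0.003 for GNA13, which turns its sign without carboplatin replicate 2, and -1.298 to -0.189 for GNG3. With the deposited scaling GNG12 was at -0.156.

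Downstream of Gq, 5 of 8 genes of the phospholipase C and calcium arm were higher. PRKCD, a protein kinase C gene, was at 0.79 ± 0.19 (adjusted p = 0.234), with levels of 7.24 and 7.11 with the combination against 6.30 and 6.48 with carboplatin. The inositol trisphosphate receptor gene ITPR3 was at 0.32 ± 0.15, and 0.151 to 0.479 with single arrays left out. In the cAMP arm 7 of 17 genes were higher. PDE4B was at -0.58 ± 0.18 (adjusted p = 0.5) and CREB1, the transcription factor that binds cAMP response elements, at -0.42 ± 0.17. Against control PDE4B was at -0.65 ± 0.18 with rosiglitazone and -0.71 ± 0.18 with the combination, without a call in either (adjusted p = 0.214 and 0.209). With the deposited scaling the first was -0.399.

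Upstream, 7 of 13 receptor genes were higher. The adenosine receptor gene ADORA2B was at 0.35 ± 0.14 and the thrombin receptor gene F2R at -0.63 ± 0.28. Of 5 receptor kinases and arrestins 4 were higher, with GRK6 at 0.48 ± 0.33 and GRK5 at -0.22 ± 0.18. Of 5 cAMP-responsive genes tested 2 were higher, with CREM at -0.34 ± 0.19 and BDNF at -0.25 ± 0.22. Leaving out single arrays gave 0.114 to 0.844 for GRK6, -0.36 to -0.081 for GRK5, -0.477 to -0.202 for CREM and -0.574 to 0.064 for BDNF, whose sign turns without carboplatin replicate 2. With 64 added to the signal F2R was at -0.302. The lists had medians from -0.04 to 0.09 except for the 3 other modulators (-0.52).

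**Figure D5:**
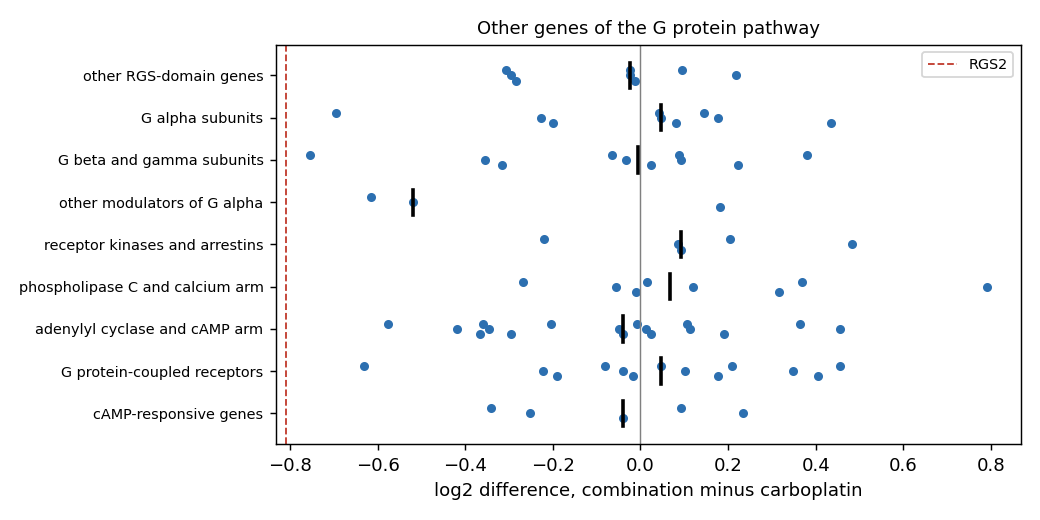
Log2 difference for the combination against carboplatin of 78 G protein pathway genes by list, 1 point a gene (points are shifted vertically only to separate them); black bars are list medians and the dashed line is RGS2 at -0.81. No point lies left of the RGS2 line, and PRKCD at 0.79 is farthest to the right.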

How the data were processed

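Labelled RNA of 8 samples, grouped by title, was hybridised to Affymetrix expression arrays. Per the labels' protocols the cDNA was primed from the poly(A) tail. The deposited file holds intensity values, 1 linear signal per probe set. How the authors computed, background-corrected and scaled them is not given in the sources used here. Signals were taken as log2(signal + 16) and quantile normalized, because array medians differed. The 68 control probe sets and those with a mean under the 40th percentile (log2 5.38) were left out, leaving 13338. limma 3.58.1 in R 4.3.3 fitted 1 coefficient per group over all 8 arrays (lmFit, eBayes with trend, 4 residual and 7.1 prior degrees of freedom). Tests were two-sided across all probe sets with Benjamini-Hochberg adjustment at 0.05. The code was tested on simulated data. Alternatives changed the scaling, the number added, the brightness limit, the variance model and the arrays used.

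All 25 member probe sets carry 1 symbol in the platform annotation and matched the RefSeq table of GRCh38.p14 through their Entrez identifier; promoters are from RefSeq too. A pathway gene was read by its brightest tested probe set. Members and lists were chosen with earlier results of these data known. By rule, every member was given, along with the 2 genes per list of smallest p for the combination against carboplatin, and the 6 genes most and 4 least like RGS2. For the other RGS-domain genes 1 of these is not reported here. GNAQ, PDGFRB, the keratins and values of named genes in further contrasts were picked after they were seen. Replicate numbers were not taken to pair the samples: deviations of same-numbered arrays of different groups correlated at -0.11 to 0.253. With 2 arrays a group, precision is low.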

Additional observations from a re-analysis of the deposited data

How the results depend on the processing

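Over 18 alternatives RGS2 stayed lower with rosiglitazone against control (-1.2 to -0.83), with the combination against control (-1.17 to -0.87) and for the combination against carboplatin (-0.91 to -0.66, adjusted p from 0.095 to 1, no call). The 2 contrasts against control chose RGS2, so nothing is read from their sign. Changes of the brightness limit, the variance trend, the groups fitted or the replicate block cannot alter a difference of group means. With rosiglitazone against control the value moved most with the deposited scaling and with 64 added to the signal. With the combination against control it moved most with 64 added. With the deposited scaling the value was -0.83 for rosiglitazone, where all probe sets had a median difference of 0.22. With 64 added the values were -0.88 for rosiglitazone and -0.87 for the combination. The number of member probe sets called with rosiglitazone against control was 0 with deposited scaling, 0 with median scaling, 0 with no brightness limit, 0 with no variance trend, 0 with array brightness as a covariate, and 0 to 1 when single arrays were left out, losing RGS2 without either control or either rosiglitazone array. With the combination against control it was 0 with deposited scaling, median scaling, no limit or no trend, and 0 to 1 when single arrays were left out, losing RGS2 without either control array, either combination array or carboplatin replicate 1. The RGS2 difference between the combination and rosiglitazone turned to -0.14 with deposited scaling and -0.004 with median scaling, and ran from -0.128 to 0.149 with arrays left out.

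For the combination against carboplatin, small differences changed sign. RGS10 (204319_s_at) was at 0.134 with deposited and 0.054 with median scaling, and -0.103 to 0.09 with arrays left out. RGS12 (205823_at) was at 0.025 with deposited scaling and 0.024 with the brightness covariate, and -0.248 to 0.119 with arrays left out. RGS20 was at -0.031 with that covariate and -0.076 to 0.109 with arrays left out. Leaving out arrays also gave -0.026 to 1.081 for RGS12 (209639_s_at), -0.488 to 0.013 for RGS19, -1.407 to 0.003 for GNA13 and -0.574 to 0.064 for BDNF. The cause was not tested for any of these.

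Calls over all probe sets ranged from 3 to 70 with rosiglitazone against control (lowest without rosiglitazone replicate 2), from 5 to 46 with the combination against control (lowest with no trend) and from 4 to 27 for the combination against carboplatin (lowest without carboplatin replicate 1). They ranged from 0 to 2 with carboplatin, 0 to 3 for the combination against rosiglitazone and 0 to 3 for the interaction. The replicate block cannot change a group difference, because each group has 1 array of each number. RGS2 thus stayed at -1.07, -1.06 and -0.81 by design. The block gave 43, 33 and 17 calls in the first 3 contrasts named here. A crossed block with the control numbers swapped, chosen after seeing the data, gave 80, 47 and 27. No pathway gene was called under any other alternative, and they were not counted under the crossed block. Without detection calls, the signal over background of the dim probe sets is unknown.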
